A study of Mus musculus with 26 samples.

Results

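The Wnt ligands, their receptors and their modulators were examined in RNA-seq libraries of the proximal small intestine (SI). The members were the genes of the deposited count table whose symbols name Wnt ligands, Frizzled receptors, secreted frizzled-related proteins, Dickkopf proteins or R-spondins, together with *Lrp5*, *Lrp6*, *Axin1*, *Axin2*, *Tcf7*, *Tcf7l1*, *Tcf7l2*, *Lef1*, *Znrf3*, *Rnf43*, *Lgr4*, *Ctnnb1* and *Apc*. These are 54 of 55487 genes, taken by symbol, although the list was drawn up with earlier results of these data known. The libraries came from 26 mice of 8 to 12 weeks on a C57BL/6N background. Knockout mice carried floxed alleles of the targeted gene and the Villin-creERT2 transgene, whose villin promoter drives a tamoxifen-inducible Cre in intestinal epithelial cells (IECs) alone. Control mice were littermates with the same floxed alleles and no transgene. Both genotypes received 5 daily injections of tamoxifen and were killed 3 days (7 mice per genotype) or 7 days (6 mice per genotype) after the last one. Because the control mice lacked the transgene, an effect of the deletion and an effect of the transgene or of active Cre cannot be told apart. Each library holds 1 piece of tissue from 1 mouse, with epithelium, lamina propria and muscle, so fewer cells of a type and less RNA per cell cannot be told apart.

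In the crypts of the SI, Wnt ligands from Paneth cells and from mesenchymal cells below the epithelium bind Frizzled receptors and the co-receptors Lrp5 and Lrp6. Binding halts the destruction of beta-catenin by a complex that contains Apc and Axin proteins, and beta-catenin then acts with Tcf and Lef factors on genes that keep stem cells and dividing cells in place. R-spondins, bound by Lgr receptors, raise the response by removing the ubiquitin ligases Rnf43 and Znrf3, which otherwise clear Frizzled receptors from the cell surface. The Sfrp and Dkk genes are grouped here as secreted antagonists, whatever the action of each product.

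The libraries held between 3720168 and 6338016 counts, and levels are given as normalised CPM, the counts of a gene relative to the library total after scaling by its TMM factor. A count of 3, taken as the floor, corresponded to between 0.453 and 0.766 normalised CPM. Summed markers of the stomach exceeded 5000 normalised CPM in 4 libraries and those of the exocrine pancreas in 4 others. Outside the libraries rich in each, they reached 322.2 for the stomach and 4229 for the pancreas. Rich in stomach markers were knockout replicate 1 and control replicates 5 and 7 of day 3 and control replicate 2 of day 7. Rich in pancreas markers were knockout replicate 2 and control replicates 2 and 3 of day 3 and knockout replicate 4 of day 7. Without these libraries, the members that passed the test in the knockout at day 7 stayed past it. Where a call of a member was lost without them, the value is given below. The calls of pathway and marker genes outside the members were not checked without these libraries.

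Many members were too low to be tested. Of the 54 members, 41 entered at least 1 test after genes with zero counts in most mice of a group were left out, and 13 entered none. *Wnt1*, *Wnt3a*, *Wnt7a*, *Wnt8a* and *Dkk1* had 0 counts in all 26 libraries, which allows at most the floor in each. *Wnt8b*, *Wnt10a* and *Wnt10b* never exceeded 2 counts in a library. *Wnt7b*, *Wnt11*, *Wnt16*, *Rspo4* and *Sfrp4* had between 10 and 21 counts over all libraries. Among the ligands, 9 of 19 entered the main test, so its statements on ligands cover *Wnt2*, *Wnt2b*, *Wnt3*, *Wnt4*, *Wnt5a*, *Wnt5b*, *Wnt6*, *Wnt9a* and *Wnt9b* alone.

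At day 3, 1 of 40 tested members passed the test, which was the quasi-likelihood test of edgeR with Benjamini-Hochberg adjustment over all genes. This was the co-receptor *Lrp6*, which was lower in knockout mice. Of all 20760 genes tested at that day, 1.43% passed, 1.11% as higher and 0.323% as lower. The median log2 fold change of the members was −0.24, beside −0.03 over all genes tested, and 32 of 40 members had a negative value, of which 31 did not pass. At day 7, 11 of 40 tested members passed, and *Ctnnb1*, *Fzd4* and *Fzd6* were higher whereas *Axin2*, *Fzd5*, *Lgr4*, *Lrp6*, *Rnf43*, *Sfrp5*, *Wnt4* and *Wnt6* were lower. This share, 27.5%, was below the 38.5% of all 20259 genes that passed at day 7 (19.7% higher, 18.8% lower), so members were not called at a higher share than all genes. The change of the genotype effect between the days passed for 6 of 40 members (15%, beside 17% of all 21415 genes), 1 as a rise (beside 7.96%) and 5 as a fall (beside 9.07%). The plot of the genotype effects shows that the called values lie in each functional class but the Tcf and Lef factors.

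**Figure D1:**
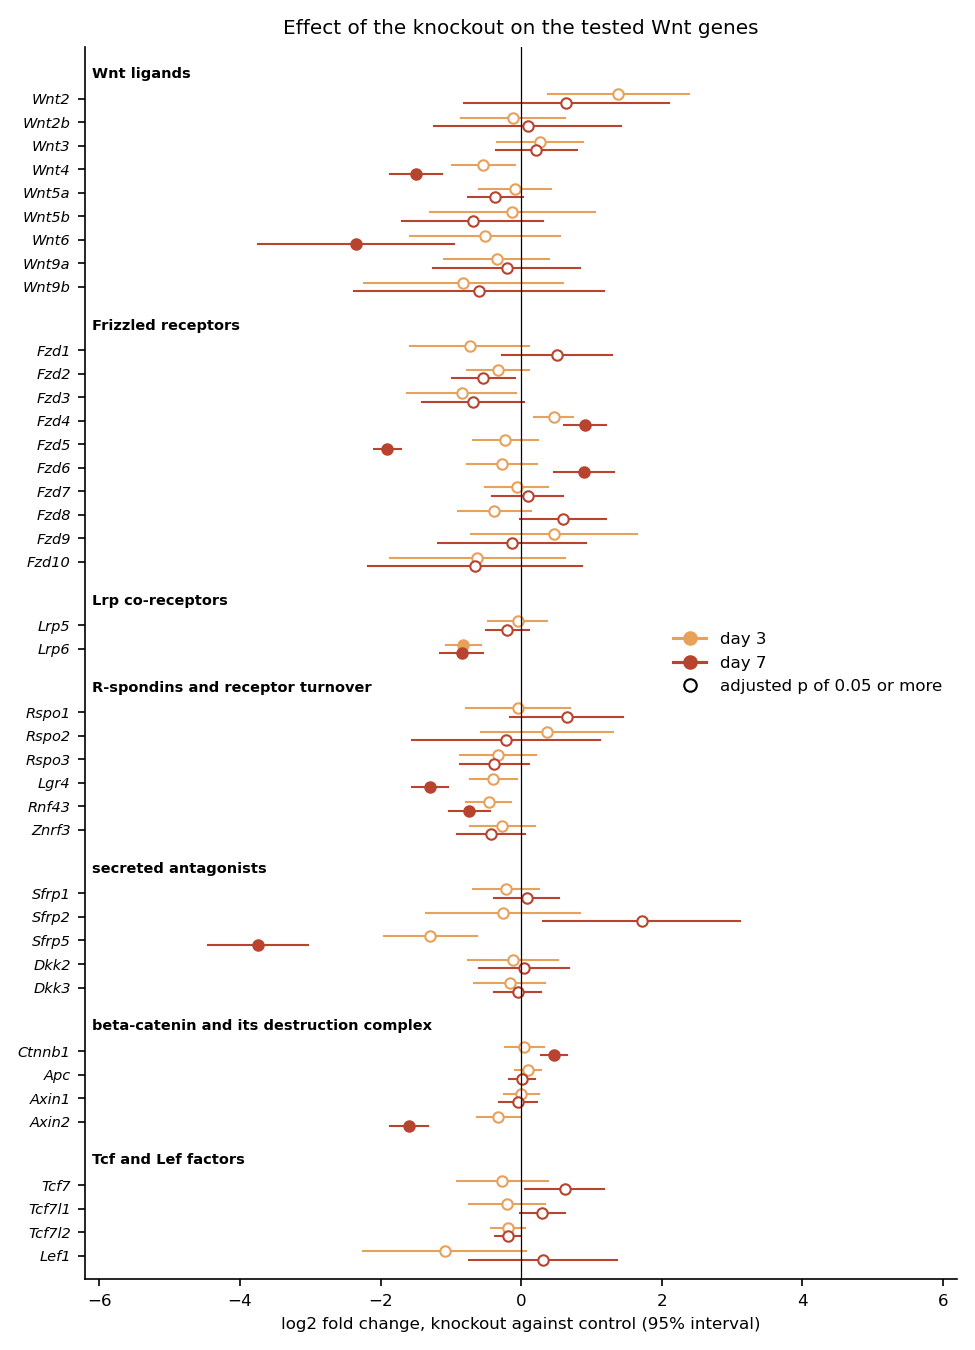
Log2 fold change of knockout against control mice (x axis, points, with 95% intervals as lines) for the 40 members tested at both days, grouped by role, at day 3 (orange, 7 mice per genotype) and day 7 (red, 6 mice per genotype). Filled points passed the edgeR test at an adjusted p of 0.05; *Lrp6* has nearly the same value at both days, whereas *Sfrp5*, *Fzd5*, *Axin2* and *Wnt4* lie further to the left at day 7.

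*Axin2* and *Sfrp5* were among the members with the largest falls at day 7, and *Wnt3*, which encodes the canonical ligand of Paneth cells, did not pass the test. The 250 bases before their transcription start, taken from RefSeq on GRCm38.p6, are shown so that the sequences can be set beside these results, together with those of *Sp5*, a Wnt target gene outside the members that fell at day 7 (below). *Sp5* is 1 of 7 listed crypt target genes that fell, and the motif was not counted for the others, so it does not stand for them. Capitals mark the core of the motif bound by Tcf and Lef factors (CTTTG, or CAAAG on the other strand).
*Axin2*, chr11:108920099-108920348, plus strand: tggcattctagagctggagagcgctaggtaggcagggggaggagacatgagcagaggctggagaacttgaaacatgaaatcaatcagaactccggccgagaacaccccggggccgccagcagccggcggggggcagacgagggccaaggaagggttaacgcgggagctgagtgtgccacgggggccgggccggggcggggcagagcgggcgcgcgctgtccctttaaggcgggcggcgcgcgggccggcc
*Sfrp5*, chr19:42202253-42202502, minus strand: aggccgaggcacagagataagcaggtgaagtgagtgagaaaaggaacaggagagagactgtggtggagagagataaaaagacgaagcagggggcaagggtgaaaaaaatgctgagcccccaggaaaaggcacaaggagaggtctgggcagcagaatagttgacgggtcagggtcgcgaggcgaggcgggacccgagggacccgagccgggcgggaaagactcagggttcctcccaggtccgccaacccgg
*Wnt3*, chr11:103773925-103774174, plus strand: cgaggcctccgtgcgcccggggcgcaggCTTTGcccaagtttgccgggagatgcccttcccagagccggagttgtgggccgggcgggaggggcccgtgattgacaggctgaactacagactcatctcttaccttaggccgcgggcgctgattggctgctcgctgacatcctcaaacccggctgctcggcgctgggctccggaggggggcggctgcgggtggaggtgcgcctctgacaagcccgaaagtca
*Sp5*, chr2:70474673-70474922, plus strand: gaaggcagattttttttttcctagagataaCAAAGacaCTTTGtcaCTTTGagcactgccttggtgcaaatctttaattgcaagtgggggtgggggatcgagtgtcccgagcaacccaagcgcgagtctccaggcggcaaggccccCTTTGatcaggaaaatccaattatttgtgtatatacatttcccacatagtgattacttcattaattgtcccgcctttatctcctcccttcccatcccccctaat

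The core occurred 4 times in the window of *Sp5*, 1 time in that of *Wnt3*, and in 0 places in those of *Axin2* and *Sfrp5*. So short a motif is common, and 48.6% of 32851 promoter windows held it on either strand. Windows were at hand for 35 members, of which 14 held it. These are counts of members with the core in any of their windows, and by window it was in 19 of 45. Of members with a window, 0 of the 7 that fell at day 7 held it. So did 0 of the 2 that rose and 10 of the 17 tested that did not pass. The longer form CTTTGA was in 13.8% of all windows and in those of 5 members. The windows of *Axin2*, *Sfrp5*, *Wnt3* and *Sp5* were 69.2%, 59.6%, 68.0% and 46.0% G or C, beside a median of 52.4% over all windows. The part of base content in these counts was not tested. They are counts of letters in a short window before the start and say nothing about binding elsewhere.

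Among the ligands, *Wnt4* fell at day 7 and *Wnt3* and *Wnt5a* did not pass the test at either day. *Wnt4*, whose product acts in several epithelia through canonical and other Wnt branches, ranged from 5.51 to 11.3 normalised CPM in the knockout group at day 7 (median 6.79), against 15.7 to 23.6 in controls (median 21.8). No knockout mouse reached the lowest control mouse, and the log2 fold change was −1.49 ± 0.18 (SE, edgeR adjusted p = 1.68e-06). At day 3, *Wnt4* was 12.6 to 25.8 in the knockout group (median 18.1), against 15.8 to 39.5 in controls (median 25.7), with overlap. The day 3 log2 fold change was −0.54 ± 0.21 (edgeR adjusted p = 0.259). The fall was larger at day 7 than at day 3 by 0.92 ± 0.30 on the log2 scale (edgeR interaction, adjusted p = 0.0296), a call that was lost without the libraries rich in stomach or pancreas markers (adjusted p = 0.0859). It was also lost without knockout replicate 6 of day 3 or knockout replicate 1, 2 or 5 of day 7 (adjusted p between 0.051 and 0.0534).

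*Wnt3* was 3.64 to 5.74 normalised CPM in the knockout group at day 7 (median 4.85), against 1.80 to 7.27 in controls (median 3.62). The knockout mice lay within the range of the control mice, and the log2 fold change was 0.22 with a 95% interval from −0.35 to 0.79 (edgeR adjusted p = 0.58). The day 3 values were 2.37 to 8.25 (median 3.95) and 2.51 to 6.53 (median 3.28), and the log2 fold change was 0.27 (interval −0.34 to 0.89, edgeR adjusted p = 0.746). The groups overlapped there too, and the libraries held 8 to 36 counts of *Wnt3*.

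*Wnt5a*, a mesenchymal ligand that acts mainly without beta-catenin, was 5.84 to 15.4 normalised CPM in the knockout group at day 7 (median 10.7), against 9.79 to 16.6 in controls (median 14.1). The groups overlapped (log2 fold change −0.37 ± 0.19, edgeR adjusted p = 0.136), and the difference passed without knockout replicate 6 (−0.53, adjusted p = 0.033). Values at day 3 were 10.5 to 35.9 (median 24.5) and 15.1 to 35.7 (median 23.7), also with overlap (−0.09 ± 0.24, adjusted p = 0.918). An annotated gene, *Gm2670*, shares exons with *Wnt5a*, and the counting was not stated to use the strand.

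*Wnt6*, a ligand named here after its values were seen, passed the test at day 7 on very few counts. Knockout libraries held at most 2 counts of it and control libraries 1 to 8, and the groups overlapped. Set against the floor, the control mean of 0.921 normalised CPM was at least 1.56-fold higher than in knockout mice, and the fitted value is no measure of its size. The other 5 tested ligands had log2 fold changes from −0.82 to 1.38 at day 3 and from −0.69 to 0.64 at day 7, none past the test. The ends at day 3 were *Wnt9b* (at most the floor in most libraries) and *Wnt2* (1.38 ± 0.47, edgeR adjusted p = 0.182).

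All 10 Frizzled receptors were tested, and they moved in both directions at day 7. *Fzd5*, a Frizzled receptor of crypt epithelium, ranged from 21.4 to 26.4 normalised CPM in the knockout group (median 23.4), against 78.5 to 98.2 in controls (median 86.9). The groups were far apart, and the log2 fold change was −1.90 ± 0.09 (edgeR adjusted p = 1.42e-11), the smallest adjusted p of any member. At day 3, *Fzd5* was 25.8 to 82.1 in the knockout group (median 55.5), against 40.6 to 83.8 in controls (median 72.0). The groups overlapped at that day (−0.22 ± 0.22, adjusted p = 0.72), and the change between the days passed the interaction test (−1.66 ± 0.26, edgeR adjusted p = 2.77e-05). *Gm38058* shares exons with *Fzd5*.

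*Fzd4*, which is known as the receptor of norrin in vessels, rose at day 7. It ranged from 34.9 to 43.8 normalised CPM in the knockout group (median 39.5), against 14.6 to 29.5 in controls (median 20.1). No groups overlapped at day 7, and the log2 fold change was 0.91 ± 0.14 (edgeR adjusted p = 3.8e-05). The day 3 range was 31.0 to 43.7 (median 32.7) against 19.9 to 31.9 (median 22.6), with 1 control mouse inside the knockout range. That difference did not pass (0.46 ± 0.13, edgeR adjusted p = 0.0984), but passed in a fit of all 26 libraries and with the Wald test of DESeq2. Nor did the change between the days pass (0.47 ± 0.19, edgeR interaction, adjusted p = 0.0964). Markers of endothelium moved with it at day 7: 5 of 6 were higher (beside 19.7% of all genes) and 1 was lower (beside 18.8%). Their summed level was between 219.1 and 291.8 in knockout mice and between 112 and 157.6 in control mice. At day 3, 0 of the 6 passed (edgeR, 0 at an unadjusted p under 0.05), with 198.8 to 522 against 255 to 426.8. Their part in the level of *Fzd4* was not tested.

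*Fzd6* was 4.94 to 8.89 normalised CPM in the knockout group at day 7 (median 7.26), against 3.09 to 5.07 in controls (median 3.77). The ranges touched at their ends, and the log2 fold change was 0.90 ± 0.20 (edgeR adjusted p = 0.00167). At day 3, levels were 2.49 to 6.55 (median 3.90) and 3.03 to 6.85 (median 5.20), with overlap (−0.27 ± 0.24, adjusted p = 0.679). The difference between the days was 1.19 ± 0.31 (edgeR interaction, adjusted p = 0.00674), and *Fzd6* was the only member whose change between the days passed as a rise. *Gm26704* shares exons with *Fzd6*. The other 7 Frizzled receptors did not pass at day 7, where *Fzd2* was nearest (−0.54 ± 0.21, adjusted p = 0.0524), nor at day 3.

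**Figure D2:**
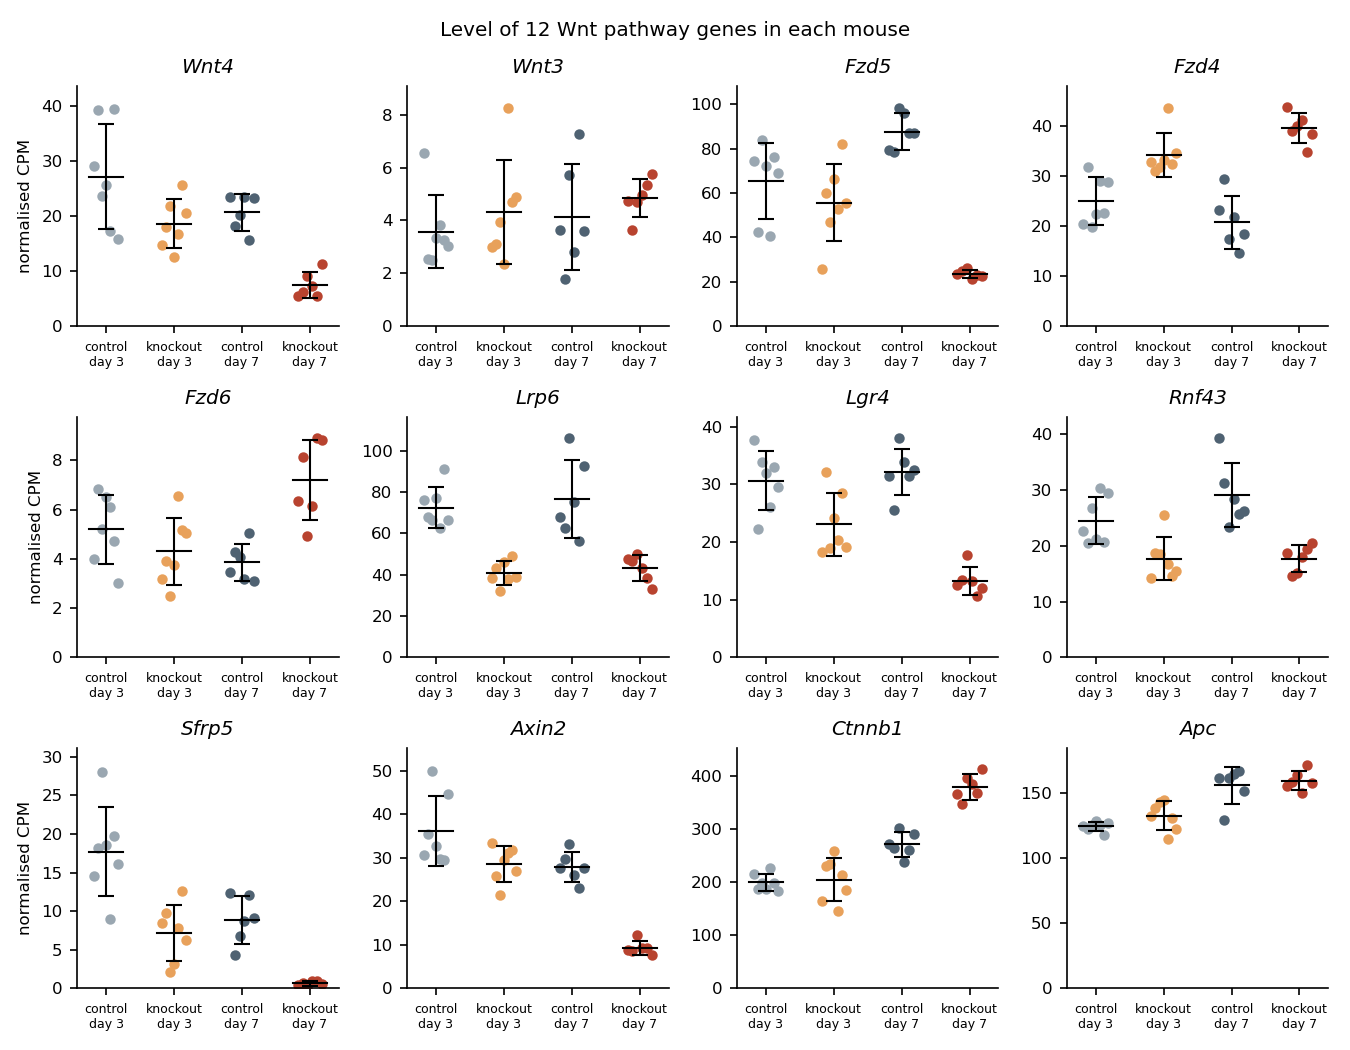
Normalised CPM (y axis, starting at 0) of 12 members in each mouse, in control and knockout mice at day 3 (7 mice each) and day 7 (6 mice each). Points are mice, and lines are the mean ± SD; the knockout mice at day 7 lie apart from their controls for *Wnt4*, *Fzd5*, *Fzd4*, *Lrp6*, *Lgr4*, *Rnf43*, *Sfrp5*, *Axin2* and *Ctnnb1*, and only *Lrp6* is apart at day 3.

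The co-receptor *Lrp6* was the only member past the test at both days. At day 3, it ranged from 32.0 to 49.0 normalised CPM in the knockout group (median 38.7), against 62.5 to 91.3 in controls (median 67.9). The groups did not overlap, as for 0.275% of all genes in that direction (no member was apart as higher, beside 0.66%), and the log2 fold change was −0.82 ± 0.12 (edgeR adjusted p = 0.00126). At day 7, the range was 33.2 to 50.3 (median 45.0) against 56.2 to 106.1 (median 71.4), again without overlap (−0.84 ± 0.14, adjusted p = 1.17e-04). The change between the days was −0.00 with a 95% interval from −0.40 to 0.39 (edgeR interaction, adjusted p = 0.998). The paralogue *Lrp5*, between 11.2 and 32.4 normalised CPM over all libraries, did not pass (−0.05 ± 0.20 at day 3 and −0.19 ± 0.14 at day 7).

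Neighbours of *Lrp6* on chromosome 6 (134446476 to 134566965, minus strand, GRCm38) were lower at day 3 as well. They were looked at after the value of *Lrp6* was seen, and the distance was chosen then. Of 42 other genes tested within 2.5 Mb of *Lrp6*, 33 had a negative log2 fold change at day 3, with a median of −0.43 beside −0.03 over all genes. The genes that passed were *Fam234b* (−0.90 ± 0.12, edgeR adjusted p = 5.86e-04), *Atf7ip* (−0.58 ± 0.08, 9.19e-04), *Plbd1* (−0.88 ± 0.20, 0.0381) and *Gucy2c* (−0.81 ± 0.19, 0.043), all lower. They made up 9.52% of the neighbours, beside the 0.323% of all genes called lower. At day 7, 13 of 45 neighbours were lower (28.9%, beside 18.8% of all genes), and the same 4 genes were again lower. The median was −0.28, and *Apold1* (0.65), *Gprc5a* (1.03) and *Hebp1* (1.11) were higher. Whether the level of *Lrp6* is part of a difference over this stretch of the chromosome was not tested.

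Of the R-spondins and the genes of receptor turnover, *Lgr4* and *Rnf43* fell at day 7 and *Rspo3* and *Znrf3* did not pass. *Lgr4*, a receptor for R-spondins in crypt cells, ranged from 10.7 to 17.7 normalised CPM in the knockout group at day 7 (median 12.9), against 25.6 to 38.0 in controls (median 32.0). No values overlapped, and the log2 fold change was −1.30 ± 0.12 (edgeR adjusted p = 1.39e-07). At day 3, the values were 18.3 to 32.2 (median 20.4) and 22.3 to 37.8 (median 31.9), with overlap (−0.40 ± 0.16, adjusted p = 0.259). The fall was larger at day 7 (difference −0.87 ± 0.21, edgeR interaction, adjusted p = 0.00305).

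*Rnf43*, itself a Wnt target, was 14.6 to 20.5 normalised CPM in the knockout group at day 7 (median 18.4), against 23.5 to 39.4 in controls (median 27.3). The groups did not overlap (−0.73 ± 0.14, edgeR adjusted p = 3.05e-04). The day 3 values were 14.3 to 25.5 (median 16.7) and 20.6 to 30.4 (median 22.7), where 1 knockout mouse lay inside the control range (−0.46 ± 0.15, adjusted p = 0.163). The change between the days did not pass for *Rnf43* (−0.25 ± 0.21, edgeR interaction, adjusted p = 0.47). Its homologue *Znrf3* was 5.13 to 9.53 in the knockout group at day 7 (median 7.21), against 6.3 to 15.6 in controls (median 8.05), with overlap (−0.43 ± 0.23, adjusted p = 0.152). At day 3, *Znrf3* was between 4.89 and 15.3 (median 10.1) against 8.93 to 15.8 (median 12.3), and did not pass either (−0.27 ± 0.22, adjusted p = 0.659).

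*Rspo3*, the main R-spondin of crypt mesenchyme, ranged from 1.99 to 5.03 normalised CPM in the knockout group at day 7 (median 4.46), against 3.94 to 6.81 in controls (median 5.16). Values at day 3 were 4.05 to 17.4 (median 9.34) and 8.53 to 16.2 (median 12.0). The groups overlapped at both days, with log2 fold changes of −0.38 (interval −0.87 to 0.11, edgeR adjusted p = 0.22) and −0.33 (interval −0.88 to 0.21, adjusted p = 0.63). *Gm48159* shares exons with *Rspo3*. *Rspo1* and *Rspo2* did not pass at either day.

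Among the secreted antagonists, *Sfrp5* had the lowest fitted log2 fold change of the members at day 7. Its product binds Wnt ligands outside the cell. At day 7, *Sfrp5* was between 0.224 and 0.993 normalised CPM in knockout mice (median 0.654), which is 1 to 5 counts per library, and between 4.27 and 12.4 in control mice (median 8.93). No groups overlapped, and the log2 fold change was −3.74 ± 0.34 (95% interval −4.45 to −3.04, edgeR adjusted p = 5.88e-08). The fitted size rests on 20 counts over the 6 knockout libraries, against 272 in control mice, a ratio of 13.8 after scaling (exact 95% interval 8.75 to 22.9, counting error only). At day 3, it was 2.08 to 12.7 in the knockout group (median 7.76), against 8.93 to 28.0 in controls (median 18.2). Those groups overlapped, and the log2 fold change of −1.29 ± 0.32 narrowly missed the threshold (edgeR adjusted p = 0.0508, and 0.0303 without the libraries rich in stomach markers). It passed without knockout replicate 1 or 6 or control replicate 5 (adjusted p between 0.026 and 0.0361). The effect was larger at day 7 by −2.43 ± 0.53 (edgeR interaction, adjusted p = 0.00135).

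*Dkk4*, an antagonist that Wnt signalling induces, was left out of the main test between the genotypes, because most knockout libraries had 0 counts. Without a filter on low counts, it passed at day 7 (−3.72, edgeR adjusted p = 0.00132), a fitted size that rests on very few counts. Knockout libraries at day 7 held at most 1 count of it and control libraries 1 to 7, and at day 3 they held at most 2 and 3. The mean of the day 7 controls, 0.709 normalised CPM, was at least 1.20-fold higher than the floor of the knockout mice. *Sfrp1*, *Dkk2* and *Dkk3* had log2 fold changes of 0.08, 0.04 and −0.05 at day 7 and did not pass at either day. *Sfrp2* had a log2 fold change of 1.71 ± 0.67 at day 7 on at most 13.5 counts per library and did not pass (edgeR adjusted p = 0.0507). Counted over all 54 members at day 7, the groups did not overlap for 2 higher members (beside 11.8% of all genes tested) and for 8 lower ones (beside 10.5%). *Dkk4*, 1 of the 8, was not tested and so lies outside the genes behind these shares.

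Within beta-catenin and its destruction complex, *Axin2* fell, *Ctnnb1* rose and *Apc* and *Axin1* did not pass. *Axin2*, a negative regulator and a commonly used readout of Wnt signalling, ranged from 7.69 to 12.3 normalised CPM in the knockout group at day 7 (median 9.04), against 23.0 to 33.3 in controls (median 27.7). The groups were apart, and the log2 fold change was −1.60 ± 0.13 (edgeR adjusted p = 1.26e-08). At day 3, levels were 21.4 to 33.5 (median 29.5) and 29.5 to 50.0 (median 32.7), with overlap (−0.33 ± 0.15, adjusted p = 0.329). The difference between the days was −1.25 ± 0.20 (edgeR interaction, adjusted p = 3.41e-05). *Gm11670* shares exons with *Axin2*.

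*Ctnnb1*, which encodes beta-catenin, ranged from 346.8 to 413.8 normalised CPM in the knockout group at day 7 (median 376.4), against 238.3 to 303.0 in controls (median 267.9). All knockout mice lay above all control mice (0.47 ± 0.09, edgeR adjusted p = 3.58e-04). *Mir7090* and *Ulk4* share exons with *Ctnnb1*. At day 3, the values were 145.9 to 258.8 (median 213.9) and 183.1 to 227.0 (median 198.9), and the knockout mice spread to both sides of the control mice (0.05 ± 0.13, adjusted p = 0.92). The change between the days did not pass (0.44 ± 0.16, edgeR interaction, adjusted p = 0.0553). It passed with the Wald test of DESeq2 (adjusted p = 0.0394) and in edgeR with plain library totals (adjusted p = 0.0154). Without knockout replicate 2, 3 or 4 of day 3 it passed as well (edgeR adjusted p between 0.0231 and 0.0468). *Apc* was 149.7 to 170.9 in the knockout group at day 7 (median 157.9), against 128.8 to 166.6 in controls (median 161.0), with an interval of the log2 fold change from −0.17 to 0.20 (edgeR adjusted p = 0.91). At day 3, *Apc* was between 114.5 and 144.5 (median 131.7) against 117.3 to 128.2 (median 124.8), with an interval from −0.09 to 0.29 (adjusted p = 0.688). *Axin1*, which is not induced by Wnt signalling, had log2 fold changes of 0.00 and −0.04.

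No Tcf or Lef factor passed the edgeR test at either day (0 of 4 at day 3 and 1 of 4 at day 7 at an unadjusted p under 0.05), although *Tcf7l2* passed at day 7 with the Wald test of DESeq2 (−0.21, adjusted p = 0.0387) and *Tcf7* without knockout replicate 1 or 3. *Tcf7l2*, the main such factor of the intestinal epithelium, was 114.2 to 148.4 normalised CPM in the knockout group at day 7 (median 131.0), against 138.2 to 163.8 in controls (median 143.0). The day 3 values were 79.2 to 114.3 (median 107.3) and 94.9 to 130.1 (median 117.5). The groups overlapped at both days (−0.18 ± 0.09, edgeR adjusted p = 0.114, and −0.19 ± 0.11, adjusted p = 0.512). *Tcf7*, *Tcf7l1* and *Lef1* had log2 fold changes from 0.30 to 0.62 at day 7.

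**Figure D3:**
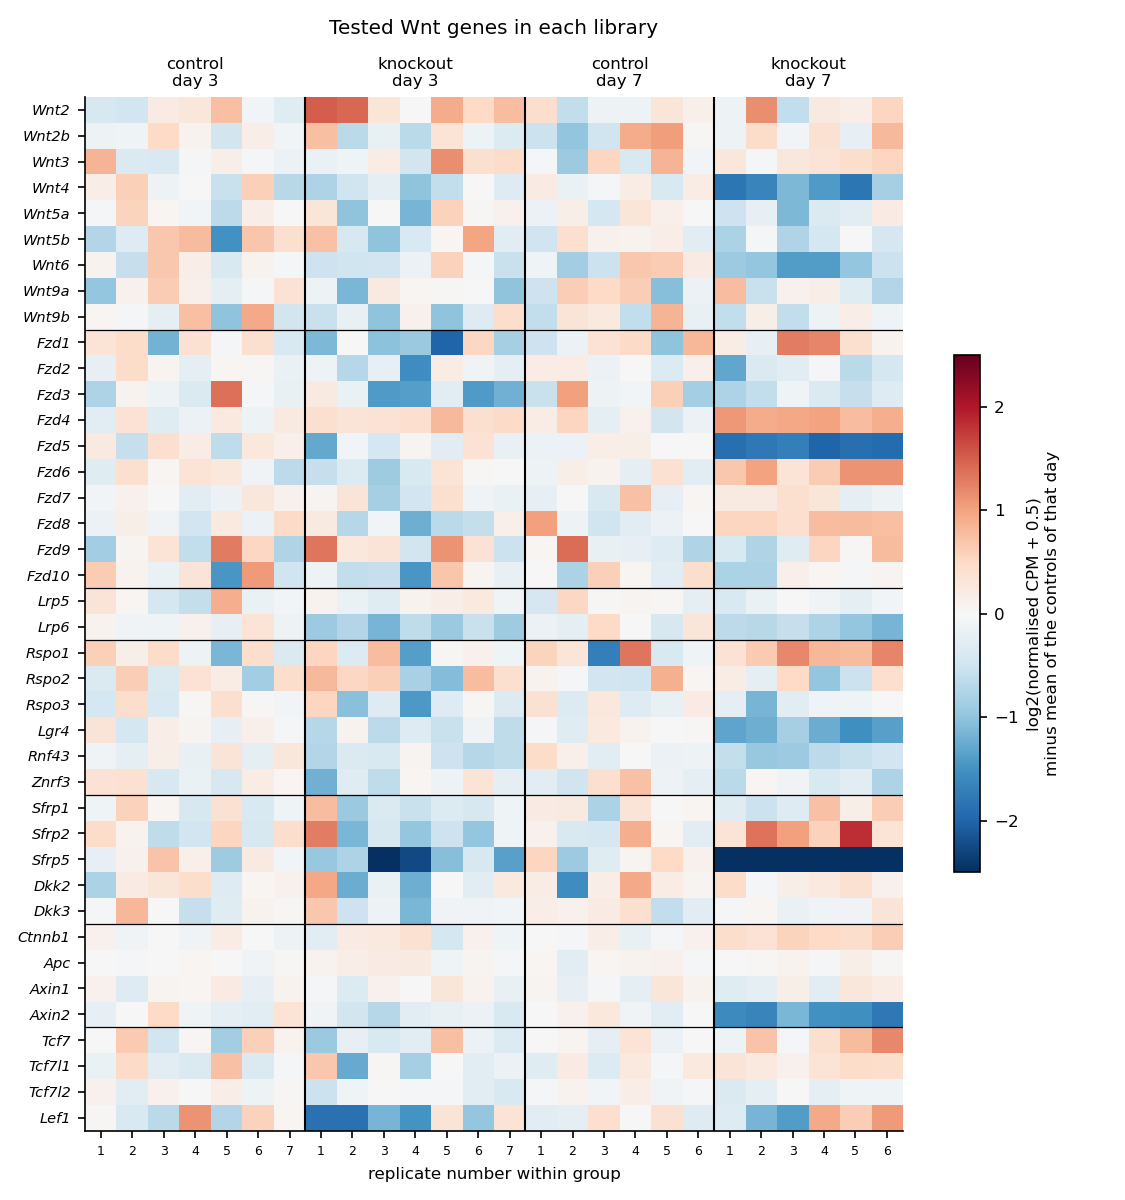
Level of the 40 members tested at both days in each of the 26 libraries, as log2(normalised CPM + 0.5) minus the mean of the control mice of the same day (colour, from −2.5 in blue to 2.5 in red, beyond which the colour no longer changes). Columns are mice, ordered by group and replicate number, and rows are members, ordered by role; *Sfrp5*, *Fzd5*, *Axin2*, *Wnt4* and *Lgr4* are blue in each of the 6 knockout mice at day 7, and *Lrp6* in each of the 13 knockout mice.

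Markers of several cell types moved between the genotypes at day 7 alongside the members. Of all genes tested, 19.7% were higher and 18.8% were lower at that day. All 12 markers of proliferating cells were lower, with a summed level between 217.3 and 324.2 normalised CPM in knockout mice and between 703.8 and 982.9 in control mice. Of the 7 tested markers of intestinal stem cells, 5 were lower and 1 was higher. Of 10 markers of epithelium, 6 were lower and 1 was higher (sums 4019 to 5133 against 4900 to 6993). Among 14 fibroblast markers, 5 were higher and 2 were lower, and 0 of 10 smooth muscle markers passed. Of the 9 tested immune markers, 3 were lower and 2 were higher, and their summed level was between 306.4 and 541.5 in knockout mice and between 632.5 and 1358 in control mice. For Paneth cells, 1 of 8 tested markers was lower and 7 had a negative value, with sums of 2498 to 5698 against 2898 to 10450. At day 3, 0 genes in these lists passed (edgeR, smallest adjusted p = 0.0508), with between 0 and 3 genes per list at an unadjusted p under 0.05. The part of these cells in the levels of *Axin2*, *Lgr4*, *Rnf43*, *Fzd5* and the other members was not tested.

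Genes of the pathway outside the members were counted over 4 lists of 75 genes. At day 3, 0 of 73 tested genes passed (edgeR, 11 at an unadjusted p under 0.05), and at day 7, 15 were higher and 15 were lower of 72 tested, or 41.7%, beside 38.5% of all genes. Of the Wnt target genes of the crypt, 7 fell (beside 18.8% of all genes) and 3 rose (beside 19.7%) among 17 tested. *Sp5* (−2.26 ± 0.20), *Cdca7* (−1.72 ± 0.15) and the stem cell receptor *Lgr5* (−1.94 ± 0.26) fell furthest, whereas *Tnfrsf19* (1.16 ± 0.16), *Myc* (1.11 ± 0.25) and *Ephb2* (0.31 ± 0.09) rose. In controls at day 7 against day 3, *Sp5* was higher (1.39 ± 0.19), and *Tnfrsf19* (−1.02 ± 0.19) and *Myc* (−0.86 ± 0.28) were lower. *Cdca7*, *Lgr5* and *Ephb2* did not pass there. Mean *Tnfrsf19* was 16.01 and 14.48 normalised CPM in knockout mice at days 3 and 7, against 13.54 and 6.42 in controls. Mean *Myc* was 8.17 and 9.52, against 8.17 and 4.31. Mean *Sp5* was 9.47 and 4.47, against 8.41 and 21.09. *Notum*, an extracellular Wnt deacylase, did not pass (0.91 ± 0.53, edgeR adjusted p = 0.196).

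In the list of secretion genes, inhibitors and other receptors, *Wls*, the carrier of Wnt proteins to the surface, rose (0.47 ± 0.10), as did the receptor *Ror1* (0.93 ± 0.34), and *Porcn*, which acylates Wnt proteins, fell (−0.87 ± 0.29) together with *Lgr5*. Among the 31 genes of signal transduction, 9 rose (beside 19.7% of all genes) and 6 fell (beside 18.8%). The largest rises were of the casein kinases *Csnk1e* (1.26 ± 0.09) and *Csnk1a1* (0.72 ± 0.09) and of the corepressor *Ctbp2* (0.69 ± 0.14), and the largest falls of the cofactor *Bcl9l* (−0.56 ± 0.11), the corepressor *Tle3* (−0.49 ± 0.18) and *Ctnnbip1* (−0.48 ± 0.09), an inhibitor of beta-catenin. Of 11 planar cell polarity genes, *Daam1* rose (1.12 ± 0.13) and *Celsr3* fell (−0.94 ± 0.21). In control mice at day 7 against day 3, *Csnk1e* (−0.92 ± 0.12), *Wls* (−0.64 ± 0.13) and *Ror1* (−1.24 ± 0.41) were lower. Higher there were *Csnk1a1* (0.32 ± 0.09), *Ctnnbip1* (0.33 ± 0.10), *Daam1* (0.54 ± 0.11) and *Celsr3* (0.82 ± 0.19), and *Porcn*, *Ctbp2*, *Bcl9l* and *Tle3* did not pass. Mean *Csnk1e* was 41.78 and 51.35 normalised CPM in knockout mice at days 3 and 7, against 41.8 and 21.17 in controls.

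Control mice of the days were compared to see which members differ without the deletion, where a batch and the day cannot be told apart. Of 41 tested members, 16 passed at day 7 against day 3 (39%, beside 36% of all 20646 genes), 5 higher (beside 19.7%) and 11 lower (beside 16.3%). *Apc*, *Ctnnb1*, *Dkk4*, *Fzd5* and *Tcf7l2* were higher at day 7, with log2 fold changes from 0.38 to 1.71. Lower were *Dkk2*, *Dkk3*, *Fzd2*, *Fzd3*, *Fzd8*, *Rspo3*, *Sfrp1*, *Sfrp2*, *Sfrp5*, *Tcf7l1* and *Wnt5a*, with values from −1.83 to −0.81. With library totals in place of TMM factors, the median of all genes moved from −0.06 to −0.41 and the split became 0 higher and 22 lower, so the 5 rises hold relative to the other genes only. Without single control mice some of these calls were lost: *Dkk4* without replicate 1, 2, 3, 4, 5 or 7 of day 3 or replicate 1, 5 or 6 of day 7 (adjusted p between 0.0505 and 0.0856), *Fzd5* without replicate 4 or 5 of day 3 or replicate 3 or 4 of day 7 (adjusted p between 0.0503 and 0.0626), *Fzd3* without replicate 1, 3, 4 or 6 of day 7 (adjusted p between 0.0502 and 0.061), and *Sfrp2* without replicate 6 of day 7 (adjusted p = 0.0515). Without the libraries rich in stomach markers, *Fzd5* (0.39, edgeR adjusted p = 0.0519), *Sfrp2* (−1.36, 0.107) and *Dkk4* (1.63, 0.0716) lost their calls. *Dkk4* also lost its call without the libraries rich in pancreas markers (1.40, adjusted p = 0.104), and *Fzd8* without either kind (−0.87, adjusted p = 0.109).

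All 6 tested genes grouped as antagonists passed between the control groups (beside 36% of all genes), *Dkk4* as higher (beside 19.7%) and 5 as lower (beside 16.3%). *Sfrp1* was between 42.2 and 91.6 normalised CPM in control mice at day 7 (median 80.2) and between 126.2 and 249.6 at day 3 (median 155.3). The days did not overlap (−1.13 ± 0.19, edgeR adjusted p = 2.50e-04). Over all members the days did not overlap for 3 higher ones (beside 9.24% of all genes) and 5 lower ones (beside 7.05%). *Rspo3* was lower as well (−1.15 ± 0.20, adjusted p = 2.78e-04), as was the receptor *Fzd2* (−1.32 ± 0.15, adjusted p = 2.23e-05). Markers of several cell types moved with them. At day 7, where 16.3% of all genes were lower and 19.7% higher, 12 of 14 fibroblast markers, 10 of 10 of smooth muscle and 6 of 6 of endothelium were lower. So were 8 of 8 markers of neurons and glia, 2 of 3 of interstitial cells of Cajal and 5 of 8 of intestinal stem cells. Of 10 immune markers, 4 were lower and 2 were higher, and 8 of 10 epithelial markers were higher. Summed smooth muscle markers were between 851.1 and 1341 in control mice at day 7 and between 1855 and 3242 at day 3. Their part in the levels of the members was not tested.

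**Figure D4:**
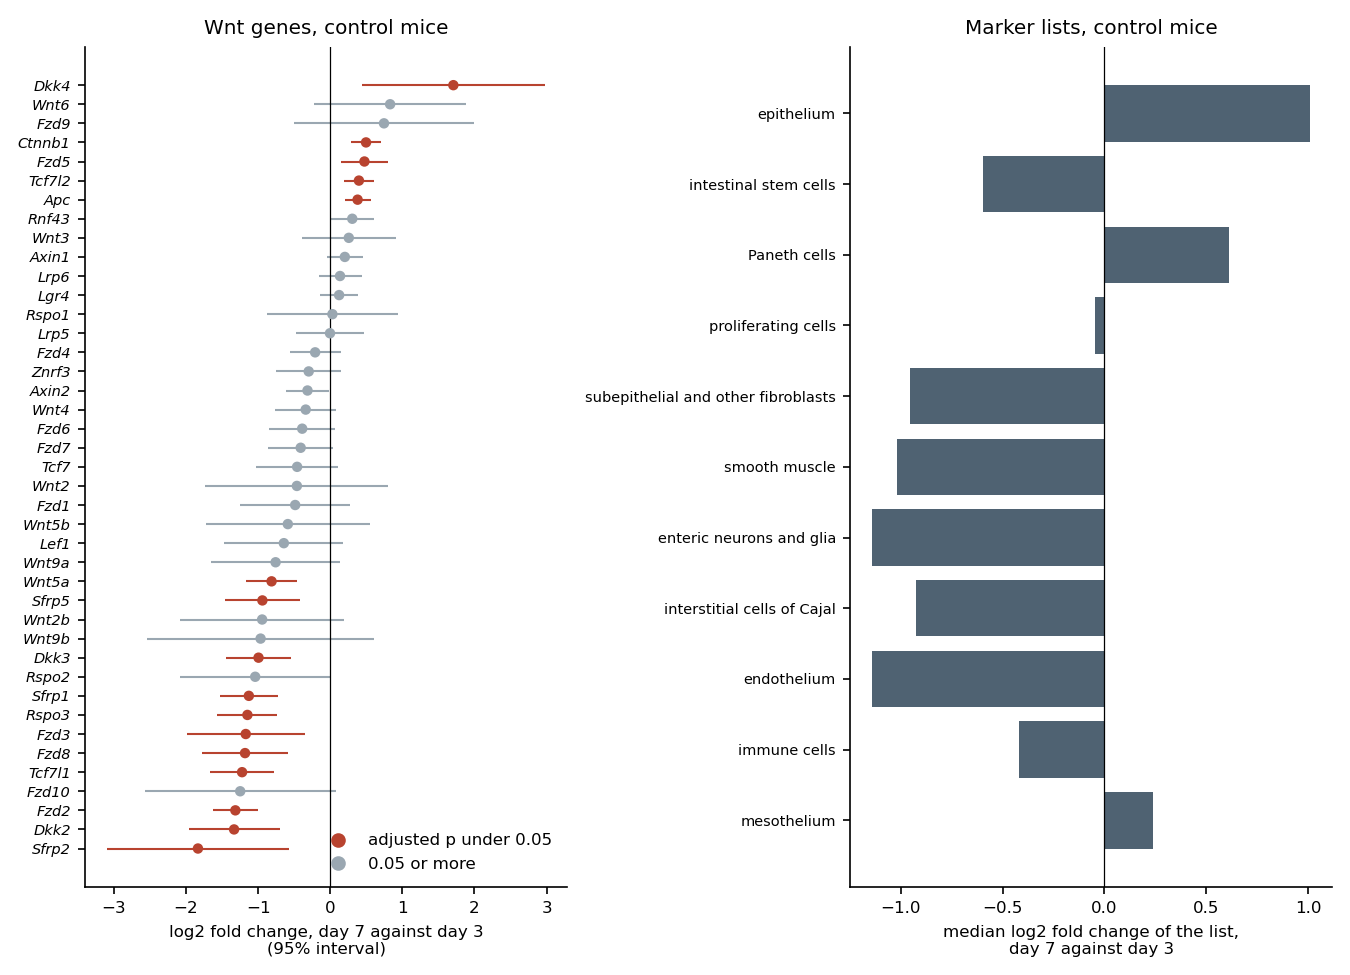
Log2 fold change of control mice at day 7 (6 mice) against day 3 (7 mice) for the 41 tested members (left, points with 95% intervals; red where the edgeR adjusted p was under 0.05) and the median log2 fold change of the genes of 11 marker lists (right, bars). Members such as *Sfrp1*, *Rspo3* and *Fzd2* lie to the left, as do the lists of fibroblasts, smooth muscle, neurons and endothelium, and the epithelial list lies to the right.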

How the data were processed

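The authors trimmed reads with cutadapt 2.10, aligned them to GRCm38 with Subread and assigned them to exons with featureCounts 2.0.1, where a read on several genes was split into fractions. They deposited estimated counts per gene, of which 95% are whole, and a CPM table that was only checked against them. Groups follow the genotype and day in the labels. The targeted gene is not reported here. The members, lists and tests were chosen with earlier results of these data known.

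Rounded counts were fitted with edgeR 4.0.16 in R 4.3.3 (quasi-likelihood, TMM, 1 fit per day, Benjamini-Hochberg over all genes). Genes at zero in most mice of either group were left out. The interaction used all 26 libraries. A standard error is the log2 fold change over the square root of its F value. Each library came from 1 mouse. Values by mouse are given for members past an adjusted p of 0.05 at day 3 or in the interaction, for those past it at day 7 with a mean of at least 20 counts in a group, and for *Wnt3*, *Wnt5a*, *Rspo3*, *Axin2*, *Rnf43*, *Znrf3*, *Ctnnb1*, *Apc*, *Tcf7l2* and *Lrp6*. Each pathway list has up to 3 rises and 3 falls named, plus *Lgr5* and *Notum*. Normalised CPM replaced CPM over plain totals after the data were seen, because the TMM factors differ between the days. Gene positions and shared exons came from GENCODE M21 on GRCm38, promoters from RefSeq. Alternatives were DESeq2 1.42.0, its size factors, plain totals, other filters, unrounded counts, a replicate block, all libraries in 1 fit, a 2-fold minimum and omission of each mouse. Leaving out libraries rich in stomach or pancreas markers was added after the data were seen. Simulated data were used to test the fits.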

Additional observations from a re-analysis of the deposited data

Results flagged for a closer look

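The effect of the knockout differed between day 3 and day 7 for 6 members by the edgeR interaction test, as described with their values by mouse. The log2 fold change at day 7 minus that at day 3 was −0.92 for *Wnt4*, −1.66 for *Fzd5*, 1.19 for *Fzd6*, −0.87 for *Lgr4*, −2.43 for *Sfrp5* and −1.25 for *Axin2*.

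In 6 of 64 groups of the named members, 1 mouse lay far from the others of its group, where chance gives 3.2. With CPM over plain library totals this was so in 3 groups. *Wnt3* was at 8.25 normalised CPM in knockout replicate 5 of day 3 (next 4.88) and at 6.53 in control replicate 1 of day 3 (next 3.83). *Fzd4* was at 43.7 in knockout replicate 5 of day 3 (next 34.5), and *Rnf43* at 25.5 in knockout replicate 4 of day 3 (next 18.7). At day 7, *Axin2* was at 12.3 in knockout replicate 3 (next 9.33) and *Rspo3* at 1.99 in knockout replicate 2 (next 4.15).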

How the results depend on the processing

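The 11 members called at day 7 stayed called in every alternative but filterByExpr, which does not test *Wnt6*, and a 2-fold minimum, which leaves 6. The Wald test of DESeq2 added *Fzd2*, *Sfrp2* and *Tcf7l2* there. *Fzd2* also passed in edgeR with DESeq2 size factors (adjusted p = 0.0432), filterByExpr (0.0376), unrounded counts (0.0403) and without the libraries rich in pancreas markers (0.0233). Unrounded counts added *Sfrp2* too (edgeR adjusted p = 0.0351). Without a filter on low counts, *Dkk4* (edgeR adjusted p = 0.00132) and *Wnt16* (−2.8, 0.0249) were added, on at most 7 and 4 counts per library. At day 3, the count of 1 became 3 with the Wald test of DESeq2 and with all 26 libraries in 1 fit (*Fzd4* and *Sfrp5* added), 3 with plain library totals (*Rnf43* and *Sfrp5*), 2 with DESeq2 size factors, with filterByExpr or without the libraries rich in stomach markers (*Sfrp5*), and 0 with a 2-fold minimum. Leaving out each mouse in turn gave 1 to 2 members at day 3 and 11 to 13 at day 7 (*Fzd2*, *Fzd3*, *Fzd8*, *Rspo1*, *Sfrp2*, *Tcf7* or *Wnt5a* added, none lost). It gave 5 to 8 in the interaction (*Ctnnb1*, *Fzd1*, *Fzd4*, *Fzd8*, *Sfrp2* or *Tcf7* added, *Wnt4* lost) and 13 to 16 between the control groups. *Wnt4* lost its interaction call with plain totals (adjusted p = 0.0534). In control mice, the rise of *Fzd5* missed the threshold with filterByExpr (adjusted p = 0.0546) or without the libraries rich in stomach markers (0.0519).

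Same-numbered mice deviated together in 4 of 13 pairs (correlation above 0.1), so the numbers were not taken to pair the mice, and 6 of 26 libraries correlated best with their own number. With the replicate number as a block, 1 member was called at day 3, 11 at day 7, 7 in the interaction and 14 between the control groups.

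Among the named values, signs turned only where the value did not pass. *Apc* at day 7 was −0.0038 with the Wald test of DESeq2, −0.0037 with DESeq2 size factors, −0.011 with plain totals, −0.020 with unrounded counts, −0.045 without stomach-rich libraries and −0.030 without either kind, and −0.045 to 0.026 without each mouse. At day 3, plain totals gave −0.0098 for *Apc* and −0.066 for *Ctnnb1*. Without pancreas-rich libraries, *Ctnnb1* was −0.0045 and *Wnt5a* 0.16 at day 3. Without each mouse, *Ctnnb1* was −0.018 to 0.11 and *Wnt5a* −0.23 to 0.036 at day 3. The *Lrp6* interaction was 0.063 with plain totals, 0.0015 without a filter on low counts, 0.024 with the replicate block, 0.041 without pancreas-rich libraries, 0.11 without either kind and −0.11 to 0.084 without each mouse. The causes were not tested. Depth limits the 13 untested members, *Wnt6*, *Sfrp2*, *Dkk4* and the size of the fall of *Sfrp5*.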
